A study of Mus musculus with 8 samples.

Results

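Testes of Ip6k1 knockout mice at 26 dpp (days postpartum) were compared with testes of wild type littermates of the same age. The arrays were chosen by their titles, 2 knockout and 2 wild type arrays of 26 dpp, and they are 4 of the 8 arrays of the series. All mice were C57BL/6; the wild type carried 2 intact copies of the gene (Ip6k1+/+), the knockout none (Ip6k1-/-), and both came from crosses of Ip6k1+/- parents. The other 4 arrays, 2 of each genotype at 17 dpp, served to estimate the spread and as a reference for age. In the labels the 2 arrays of each group are biological replicates. They give no treatment and do not say how many animals each RNA held or which part of Ip6k1 was removed. P-values therefore measure the spread between these samples. One colour (Cy3) Agilent arrays gave the brightness of each probe, expressed here as log2 signal relative to the 75th percentile of its array. A value of 1 is 1 log2 unit above that percentile, and levels of different probes are not comparable.

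Ip6k1 encodes an inositol hexakisphosphate kinase, which adds a phosphate to inositol hexakisphosphate and so makes an inositol pyrophosphate. In the mouse testis the first wave of spermatogenesis moves in step after birth: spermatogonia divide, enter meiosis as spermatocytes, and the haploid products become round and then elongating spermatids. Spermatids build an acrosome and a tail and replace histones by transition proteins and then protamines. Sertoli cells support the germ cells, Leydig cells make androgens, and macrophages lie between the tubules. In a bulk sample, fewer cells of a type and less RNA per cell cannot be told apart.

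The 2 knockout arrays did not resemble each other. Over 26451 genes the median absolute difference was 0.2155 log2 units between the wild type arrays and 0.8112 between the knockout arrays. Knockout replicate 1 lay over 1 log2 unit from the wild type mean in 628 genes, 296 higher and 332 lower. Knockout replicate 2 did so in 11387 genes, 5934 higher and 5453 lower. The wild type arrays were over 1 unit apart in 1709 genes, but a difference between single arrays varies more than one from a mean of 2. A mean over the 2 knockout arrays thus describes neither, and each is given separately below. Across genes, which are not independent replicates, the correlation of knockout replicate 2 was 0.918 to 0.948 with the younger arrays, of either genotype. With the other 3 arrays of 26 dpp it was 0.839 to 0.874, where those 3 reached 0.987 to 0.992 among themselves. The mean of its 6 spike-in probes stood 3.94 log2 units above its 75th percentile, next to the 3.47 to 3.92 of the arrays of 17 dpp. The other arrays of 26 dpp had 1.97 to 2.50. The median of the spike-in probes, before scaling, was 11.97 on this array. It was 10.46 to 10.99 on the arrays of 17 dpp and 9.40 to 9.88 on the other arrays of 26 dpp. In these measures the array labelled knockout replicate 2 at 26 dpp thus lay nearer to 17 dpp than to its labelled age. By the spike-in median it lay beyond the arrays of both ages. Whether the sample matches its label was not tested, and every value of replicate 2 below rests on that label. The share of probes well above background (the scanner software's flag) was 58.8% in knockout replicate 2 and 62.1% to 64.7% in the other 7 arrays. Scaling mattered for direction in knockout replicate 2: scaled to the median of the spike-in probes, or to the mean of 6 spike-in probes, the median of all its genes against wild type moved by −2.75 and −1.70. The main value of that median was 0.18. Under the other 5 scalings it lay between −0.043 and 0.276. Any excess in this array smaller than those shifts changed sign under spike-in scaling, and excesses are therefore also given relative to all genes.

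**Figure D1:**
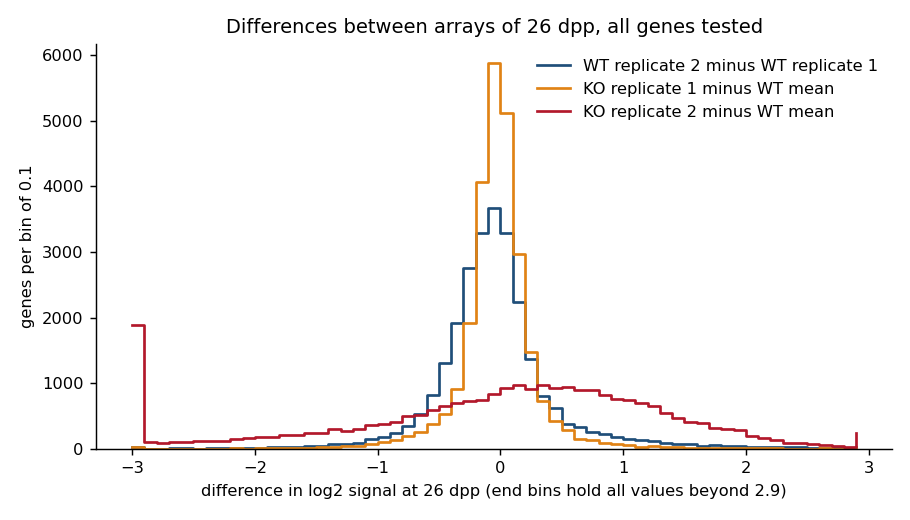
Number of genes (y axis) by difference in log2 signal (x axis, bins of 0.1) at 26 dpp, over all 26451 genes, for one wild type array against the other and for each knockout array against the wild type mean; the end bins hold all values beyond. Knockout replicate 1 is narrow, as is the wild type pair, but the 2 widths are unlike measures: a difference from a mean of 2 arrays varies less than one between single arrays. Knockout replicate 2 is broad in both directions under this scaling, with its centre below 0 under both spike-in scalings.

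The probe of the targeted gene was lower in both knockout arrays. Ip6k1 (chr9:107950832-107950891 on mm9) read 2.79 and 2.77 in wild type and 1.41 and 1.30 in the knockout, with no overlap. The arrays of 17 dpp gave 2.19 and 2.30 for wild type against 1.36 and 1.49 for the knockout. The difference at 26 dpp was −1.43 (SE 0.214), well beyond the distance between replicates. Over all genes limma gave an adjusted p of 0.522, above the threshold (the range over all settings tried was 0.00417 to 0.938). The low end of that range came from the fit without knockout replicate 1. The probe stayed well above background in both knockout arrays. A probe outside the deleted part would check nothing about the genotype.

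Enzymes that add phosphates to the inositol ring or remove them were otherwise near wild type in knockout replicate 1. The median of the 22 measured members, Ip6k1 included, was −0.047 there, against −0.025 over all genes. In knockout replicate 2 it was 0.226, against 0.18. Ip6k2, the paralogue, read −1.79 and −2.07 in wild type and −1.91 and −1.32 in the knockout. Ppip5k1, which phosphorylates the same class of molecules at another position, read 1.80 and 1.84 in wild type and 1.80 and 1.34 in the knockout. Ipmk, inositol polyphosphate multikinase, read 0.09 and 0.10 against 0.09 and 0.25. Ippk, which makes inositol hexakisphosphate, read −1.08 and −1.27 against −1.14 and −0.07. In limma none of the 22 passed, in either direction, with all arrays or without knockout replicate 2. Of the 72 genes with probes within 1 Mb of the Ip6k1 probe, 12 had both knockout arrays above (16.7%, against 15.3% of all genes) and 19 had both below the wild type arrays (26.4%, against 17.0%). Amigo3, a cell adhesion protein, read −3.60 and −4.02 in wild type and −2.06 and −1.44 in the knockout (difference 2.06, SE 0.299, limma adjusted p = 0.488). Hyal3, of the hyaluronidase family, read −6.70 and −7.35 against −5.04 and −5.49, and only 1 knockout array measured it well above background. Slc38a3, an amino acid transporter, read −6.54 and −6.50 against −5.92 and −5.36. These 3 were named for a gap over 0.5 between the groups and have no separate test.

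Both genes that passed with all arrays were dim and lower in the knockout. Adgrg7, an adhesion G protein-coupled receptor (chr16:56732925-56732984), read −3.67 and −3.58 in wild type and −7.47 and −7.49 in the knockout. Gal3st3, a sulfotransferase acting on galactose (chr19:5308348-5308407), read −3.60 and −3.80 against −7.40 and −7.43. Neither probe was well above background in any knockout array or in any array of 17 dpp. A fold is therefore a bound: the bright group's mean over the lowest signal measurable in the dim group. Adgrg7 was at least 3.91-fold lower and Gal3st3 at least 3.72-fold lower (limma adjusted p = 0.0336 each). These 2 are 0.00756% of the genes tested, and 0 were called higher (0.0%). At an unadjusted p under 0.05 there were 645 genes, 364 higher and 281 lower. In limma 0 genes (0.0%) had a knockout effect at 26 dpp that differed from that at 17 dpp, and 504 had an unadjusted p under 0.05 in that test. For Adgrg7 that test gave −4.01 (SE 0.314, adjusted p = 0.120). Both calls were lost when any 1 of the 6 arrays other than the knockout arrays of 26 dpp was left out. The adjusted p ranged from 0.000523 to 0.741 for Adgrg7 and from 0.000532 to 0.741 for Gal3st3.

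Without knockout replicate 2, limma called 3 genes higher (0.0113%) and 7 lower (0.0265%), Adgrg7 and Gal3st3 among the latter. That fit has 1 knockout array at 26 dpp, assumed to vary like the other groups. All 7 lower genes lacked the flag for signal well above background in both knockout arrays, and all 3 higher genes lacked it in both wild type arrays. The transcript 9630041A04Rik (chr9:101845457-101845516) read −1.62 and −1.23 in wild type and −7.15 and −5.84 in the knockout, at least 18.0-fold lower (limma adjusted p = 0.0315 without knockout replicate 2 and 0.0838 with it). At 17 dpp it read −4.71 and −4.43 in wild type. Ugt2b1, a glucuronosyltransferase (chr5:87346310-87346369), read −4.21 and −4.59 against −7.89 and −7.52 and was at least 2.29-fold lower. Plxna4os1, an antisense transcript (chr6:32465517-32465576), read −4.60 and −4.47 against −7.78 and −7.39 and was at least 2.08-fold lower. On the higher side, the olfactory receptor pseudogene Olfr104-ps (chr17:37499969-37500028) read −7.65 in each wild type array and −4.60 and −2.88 in the knockout, at least 3.27-fold higher. Zfp775, a zinc finger gene (chr6:48572634-48572693), read −7.56 and −7.57 against −4.48 and −4.95 and was at least 1.66-fold higher. The remaining 3 were long non-coding RNA probes. The probe at chr9:56654525-56654584 was at least 2.82-fold higher, that at chr9:61077288-61077347 at least 3.15-fold lower, and that at chr7:49743881-49743940 at least 2.06-fold lower. None of the 10 is a member of a germ cell or somatic marker list.

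Both knockout arrays lay below both wild type arrays in 4499 genes (17.0%) and above them in 4053 (15.3%). The gap between the nearest arrays passed 1 log2 unit in 62 genes on the lower side. In 54 of them at least 1 knockout array was not well above background. On the higher side the gap did so in 81 genes, and in 72 of them at least 1 wild type array was not well above background. Fcmr, an Fc receptor for IgM, was measured on all 4 arrays and read −4.98 and −5.46 in wild type and −2.18 and −2.14 in the knockout (difference 3.06, SE 0.317, limma adjusted p = 0.164). At 17 dpp wild type read −4.45 and −4.28. Zbtb8a, a zinc finger gene, read −5.18 and −5.40 against −2.87 and −2.51. Flt4, the vascular endothelial growth factor receptor of lymphatic endothelium, read −6.68 and −7.65 against −4.04 and −3.57, at least 3.13-fold higher. Ajuba, a LIM domain scaffold protein, read −5.43 and −6.49 against −3.06 and −1.38, at least 9.26-fold higher. On the lower side Slc6a19, a neutral amino acid transporter, read −2.92 and −1.88 in wild type and −7.69 and −5.56 in the knockout, at least 9.16-fold lower. The immunoglobulin segment Igkv6-15 read −2.93 and −4.16 against −7.20 and −7.41, at least 4.15-fold lower. These genes were chosen for the gap and are descriptions; none passed in limma with all arrays.

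Some of the largest gaps below wild type were genes of fat cells. The 11 measured adipocyte markers had a median of −0.951 in knockout replicate 1 and −2.79 in replicate 2, and both knockout arrays lay below both wild type arrays in 7 of 11 (63.6%, against 17.0% of all genes). Cfd, which encodes adipsin, read 2.64 and 0.41 in wild type and −3.53 and −1.55 in the knockout. Fabp4, a fatty acid binding protein, read 4.04 and 1.32 against −1.38 and 0.18. Car3, carbonic anhydrase 3, read 1.32 and −1.07 against −4.20 and −7.37. The wild type arrays themselves differed by over 2 log2 units on each of these 3. At 17 dpp wild type read 0.23 and 6.70 for Cfd. The levels of these genes thus varied widely between arrays of 1 genotype, and 0 of the 11 passed in limma. The macrophage list held H2-Ab1, a chain of a class II histocompatibility antigen, which also lay below wild type in both knockout arrays, at 0.60 and 1.22 against 2.10 and 2.86 (difference −1.57, SE 0.399, limma adjusted p = 0.534).

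Early germ cell genes were near wild type in knockout replicate 1 and higher in replicate 2. The 22 measured markers of undifferentiated spermatogonia had a median of 0.093 in replicate 1 and 1.34 in replicate 2. The 16 of differentiating spermatogonia had 0.075 and 1.103, and the 36 of early meiosis 0.055 and 0.818. In replicate 2 these 3 medians fell below 0 under both spike-in scalings, and relative to all genes they lay between 0.897 and 1.16, 0.768 and 0.923, and 0.513 and 0.638 over all 8 scalings. Zbtb16 (PLZF), a transcription factor of undifferentiated spermatogonia, read 0.03 and −0.43 in wild type and −0.01 and 3.20 in the knockout. At 17 dpp wild type read 2.48 and 2.83. Stra8, needed for entry into meiosis, read 3.53 on both wild type arrays and 3.67 and 5.59 in the knockout, against 5.24 and 5.39 in wild type at 17 dpp. Sycp3, of the synaptonemal complex that pairs chromosomes, read 4.78 and 4.91 against 4.80 and 6.34, and 5.60 and 5.64 in wild type at 17 dpp. Replicate 1 thus lay close to wild type of its own age in these 3 genes. Replicate 2 lay above wild type of 17 dpp under this scaling, but not when scaled to the spike-in median. Zbtb16 was the only one of 11 markers of undifferentiated spermatogonia with a wild type decrease over 2 log2 units in which replicate 2 lay beyond 17 dpp under this scaling. In the others replicate 2 lay below the wild type mean of 17 dpp, but mostly nearer to it than to 26 dpp. Over the 11, replicate 2 had a median of 16.9% of the wild type decrease, with 9 under 25%. The exceptions were Nanos2 (79.0%) and Neurog3 (113.2%). In 4 of the 22 replicate 2 was the highest of all 8 arrays (18.2%, against 15.1% of all genes). Replicate 2 was the highest of all 8 arrays in 18 of the 36 early meiosis genes (50%), but in 0 under the median spike-in scaling and 1 under the mean one. They included Sycp1, Sycp2, Syce2 and Hormad1, which work in the synaptonemal complex or on the chromosome axis. Majin, Terb1 and Terb2, which tether telomeres to the nuclear envelope, were also among them. Rec8, a meiotic cohesin subunit, went the other way, at 3.57 and 3.80 in wild type and 3.74 and 1.75 in the knockout.

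Age gave a scale for the genes of later stages. For each gene whose wild type mean was over 2 log2 units higher at 26 than at 17 dpp and well above background at 26 dpp, the level of each knockout array was placed between the wild type means, 0% being 17 dpp and 100% being 26 dpp. There were 4025 such genes, and since the wild type arrays both chose them and set the scale, the shares are descriptions. Knockout replicate 1 had a median share of 97.7%. Knockout replicate 2 had 35.5%, with 1777 genes under 25% and 500 over 75%. For the 2400 genes over 2 units lower at 26 dpp, the shares of the decrease were 95.5% and 34.1%. The decrease included 8 of the 13 measured genes of the epididymis, with a median share of 100.3% in replicate 2. That list had medians of −0.606 and −0.479 on the younger wild type arrays, against −7.317 and −6.947 on the younger knockout arrays. The older arrays lay between −6.134 and −4.982. Whether the arrays differed in tissue content was not tested. In replicate 2 the median share differed between the lists given next. Under the spike-in scalings, which also placed more genes in the increase, the median over all such genes was 15.5% and −12.6%. A share is exact only as far as both ends are measured. Of the 4025 genes, 1453 were not well above background on either wild type array of 17 dpp and 1212 not in replicate 2; over the 2277 measured on both wild type arrays of 17 dpp its median was 49.0%.

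**Figure D2:**
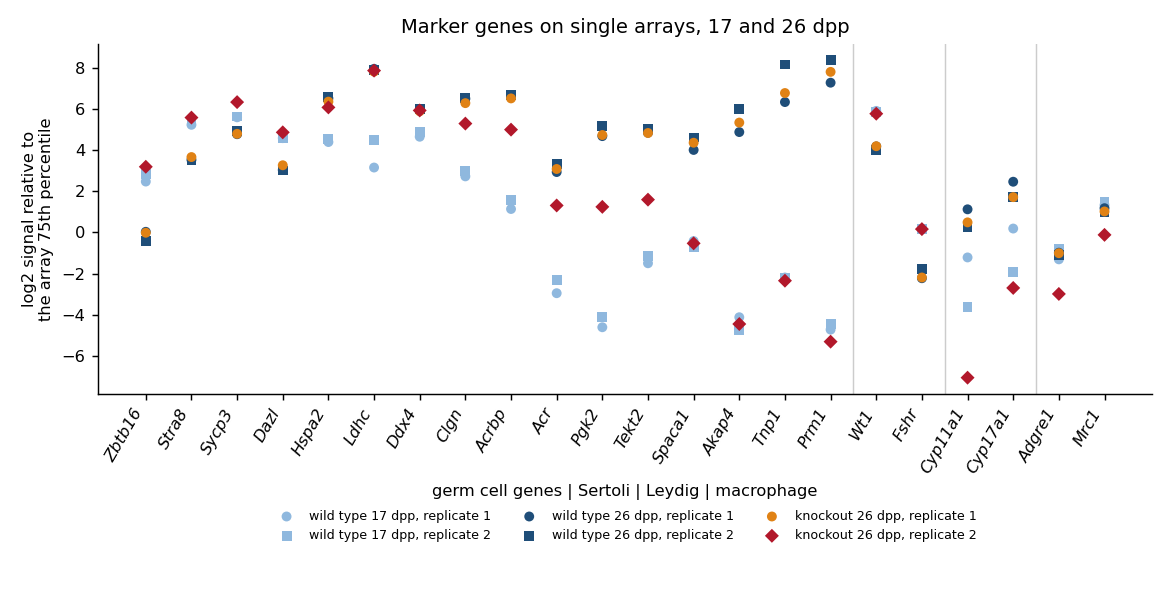
Log2 signal relative to the array's 75th percentile (y axis) of 22 marker genes (x axis: germ cell genes in order of stage, then Sertoli, Leydig and macrophage genes), 1 point per array of wild type at 17 and 26 dpp and knockout at 26 dpp. Knockout replicate 1 sits on the wild type arrays of 26 dpp; knockout replicate 2 sits with them for Ldhc and Ddx4, with wild type of 17 dpp for Spaca1, Akap4 and Tnp1, and below all others for Cyp11a1 and Adgre1.

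Spermatocyte genes had most of their increase in knockout replicate 2, except under the spike-in scalings. The median share of 19 pachytene and diplotene genes was 69.3% in replicate 2 and 97.5% in replicate 1. In replicate 2 it was 62.2% to 70.9% under the scalings without spike-in probes, but 17.9% with the spike-in median and 40.9% with the spike-in mean, which placed 25 genes of the list in the increase. Ldhc, the testis form of lactate dehydrogenase, read 7.96 and 7.89 in wild type and 7.82 and 7.87 in the knockout, against 3.16 and 4.49 in wild type at 17 dpp. Replicate 2 reached 98.7% of that increase. Hspa2, a heat shock protein of spermatocytes, read 6.52 and 6.57 against 6.36 and 6.08, or 77.4%. Clgn, a chaperone of the endoplasmic reticulum, read 6.51 and 6.55 against 6.29 and 5.30, or 66.4%. Ccna1, the germ cell cyclin of the meiotic divisions, read 3.68 and 3.69 against 3.48 and 1.07, or 67.7%. Genes of the chromatoid body and piRNA pathway, which hold and process RNA in spermatocytes and round spermatids, had a median share of 66.9% over 8 genes. Genes of translation control had 70.7% over 7. Tdrd6, a scaffold of the chromatoid body, read 3.94 and 4.08 in wild type and 3.80 and 1.74 in the knockout (72.1%). Ddx4 (MVH), the germ cell RNA helicase, read 5.95 and 6.01 against 5.90 and 5.93, with no array apart. Ybx2, which binds stored mRNA, read 6.87 and 6.95 against 6.72 and 6.21 (76.5%). Brdt, a bromodomain protein that acts on histones before their removal, exceeded its wild type level in replicate 2, at 4.80 against 4.16 and 4.43 (116.4%), and 4.10 in replicate 1.

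Acrosome genes split within their list in knockout replicate 2, as genes of the wild type increase did in general. Of 34 with such an increase, 18 had under 25% of it and 3 over 75%, with a median of 17.1%. Over all 4025 genes of the increase 1777 were under 25% and 500 over 75%, with a median of 35.5%. In replicate 1 the median of the acrosome genes was 99.2%. Their low median in replicate 2 rests in part on genes without a measured start. Over the 18 measured on both wild type arrays of 17 dpp it was 55.4%, with 7 under 25% (38.9%). Over all 2277 genes so measured it was 49.0%, with 31.9% under 25%. Acr, the acrosomal protease acrosin, read 2.94 and 3.34 in wild type and 3.09 and 1.31 in the knockout, against −2.95 and −2.32 in wild type at 17 dpp (68.4% in replicate 2). Acrbp, its binding protein, read 6.60 and 6.70 against 6.52 and 5.001 (68.8%). Spaca1, of the inner acrosomal membrane, read 4.01 and 4.62 against 4.36 and −0.53, with −0.42 and −0.69 in wild type at 17 dpp (0.5%). Acrv1, of the acrosomal matrix, read 3.09 and 3.78 against 3.46 and −5.96, where replicate 2 was at least 464-fold lower than wild type. Izumo1, which sperm need to fuse with the egg, read 0.50 and 1.21 against 0.72 and −5.35. Limma without knockout replicate 1, which compares the single array with the spread of the others, called 26 of the 36 measured members lower and 0 higher (18.3% of all genes were called lower and 26.9% higher in that fit). With all arrays 0 of the 36 passed.

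Genes of chromatin condensation had little of their increase in knockout replicate 2. The median over 14 genes was 4.6% in replicate 2 and 98.8% in replicate 1, and over the 9 measured on both wild type arrays of 17 dpp it was 2.5% in replicate 2. Tnp1, a transition protein that replaces histones, read 6.34 and 8.17 in wild type and 6.78 and −2.35 in the knockout, with −2.19 and −2.22 in wild type at 17 dpp. Prm1, a protamine, read 7.28 and 8.39 against 7.81 and −5.31, and replicate 2, not well above background, was at least 9078-fold lower than the wild type mean. Prm2, the other protamine, read 6.05 and 8.12 against 6.95 and −3.86. H1f7, a linker histone of spermatids, read 5.48 and 6.84 against 6.03 and −5.14. In all 4 genes replicate 1 lay between the wild type arrays and replicate 2 over 8 log2 units below them. Crem, the transcription factor that drives many spermatid genes, read 4.34 and 4.63 against 4.36 and 2.57 (59.2% in replicate 2). Limma with all arrays gave Tnp1 a difference of −5.04 (SE 2.69, adjusted p = 0.534) with an SE as wide as the distance between the 2 knockout arrays makes it.

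Promoters of 4 of the spermatid genes with a low share are shown because they can be set beside the levels of Crem. They are the 150 bases before the annotated start, read 5′ to 3′ on the gene's strand, from RefSeq on GRCm38.p6, a later build than that of the probes. Capitals mark the letters TGANGTCA in either orientation (TGACNTCA on the other strand), a form of the cAMP response element that factors such as CREM bind. The 4 were chosen among promoters that hold these letters. Gapdhs has 2 annotated starts, each with 2 matches, and 1 is shown. Akap4 also has 2. The upstream one is shown, and the other has 0 matches in 250 bases. Both starts of Ldhc, a gene with a high share, also have 0 matches. The upstream start of Ldhc does hold the letters TGACG, the beginning of TGANGTCA with C as N, which are not counted here. Ldhc is 1 gene and gives no contrast of high with low shares.
Tnp1, chr1:73015900-73016049, minus strand: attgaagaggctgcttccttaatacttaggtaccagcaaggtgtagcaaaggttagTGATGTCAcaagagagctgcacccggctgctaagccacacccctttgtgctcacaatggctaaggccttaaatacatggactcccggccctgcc
Prm1, chr16:10796824-10796973, minus strand: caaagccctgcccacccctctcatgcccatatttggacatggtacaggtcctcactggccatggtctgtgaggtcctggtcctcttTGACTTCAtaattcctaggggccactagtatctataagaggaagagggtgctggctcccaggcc
Akap4, chrX:7067365-7067514, plus strand: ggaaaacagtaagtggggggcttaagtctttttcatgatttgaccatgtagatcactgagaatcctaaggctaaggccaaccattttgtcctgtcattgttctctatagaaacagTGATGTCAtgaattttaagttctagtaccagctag
Gapdhs, chr7:30743682-30743831, minus strand: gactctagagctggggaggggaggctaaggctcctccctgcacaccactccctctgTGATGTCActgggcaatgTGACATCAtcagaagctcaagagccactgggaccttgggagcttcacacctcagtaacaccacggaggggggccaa
The match begins 94 bases before the start in Tnp1, 64 in Prm1 and 35 in Akap4, and Gapdhs has matches at 94 and 76. In windows of 250 bases before the start, 7.49% of all 32851 promoters and 8.55% of 27025 genes held a match. Among the genes of the wild type increase with a promoter in the table, 225 of 1015 with a share under 25% in knockout replicate 2 held one (22.17%). The counts were 112 of 1035 with 25 to 75% (10.82%) and 28 of 297 above 75% (9.43%). By list, 12 of 30 acrosome genes (40.0%), 4 of 19 condensation genes (21.05%) and 7 of 34 tail genes (20.59%) held it, and 0 of 15 channel genes and 0 of 15 genes of undifferentiated spermatogonia. Lists of other cell types or pathways also lay above the share of all genes, with 3 of 9 epididymis genes (33.33%), 4 of 13 immediate early genes (30.77%), 2 of 9 endothelial genes (22.22%) and 3 of 16 macrophage genes (18.75%). A match is a run of letters and not a bound site, and these shares have no test.

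Tail and sperm energy genes spanned the whole range in knockout replicate 2, as genes of the wild type increase did in general. Over 41 genes the median share was 57.1%, with 15 under 25% and 10 over 75%. Over all 4025 genes of the increase it was 35.5%, with 1777 under 25% and 500 over 75%. Tekt2, a tektin of the axoneme, read 4.85 and 5.04 in wild type and 4.84 and 1.60 in the knockout (46.6%). Pgk2, a glycolytic enzyme of the tail, read 4.69 and 5.18 against 4.74 and 1.25 (60.3%), while Gapdhs, which works in the same pathway, read 4.88 and 5.97 against 5.52 and −3.13 (17.5%). Akap4, a protein of the fibrous sheath, read 4.88 and 6.01 against 5.34 and −4.45, with −4.12 and −4.72 in wild type at 17 dpp (−0.3%). Odf1, of the outer dense fibres, read −0.82 and 0.32 against 0.00 and −7.60, at least 36.1-fold lower in replicate 2. The Odf genes divided in replicate 2, with shares of 5.1% for Odf1 and 0.3% for Odf3, but 68.1% for Odf2 and 77.1% for Odf4. Ion channel genes had a median of 42.6% over 18, and 57.2% over the 10 measured on both wild type arrays of 17 dpp. The same medians over all genes of the increase were 35.5% and 49.0%. The ion exchanger Slc9c1 read 4.89 and 5.05 against 4.80 and 3.17 (75.4%). The calcium channel subunit Catsper1 read 2.04 and 2.67 against 2.27 and −7.05 (8.2%), and Catsper4 read 3.90 and 4.36 against 4.02 and −0.75 (−1.1%). The list of testis-specific serine kinases, which act in late spermatids, had a median of 12.3% over 7 genes. These include Stk33 (71.9%), which is not a Tssk gene. The Tssk genes ran from −14.0% for Tssk4 to 20.7% for Tssk1. Tssk1 read 2.99 and 3.78 against 3.17 and −2.61, and Tssk6 2.38 and 4.43 against 3.32 and −3.36. Small shifts recurred in replicate 1: 19 of the 42 measured tail genes (45.2%) lay below both wild type arrays, where 32.5% of all genes did, and the median was −0.119.

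**Figure D3:**
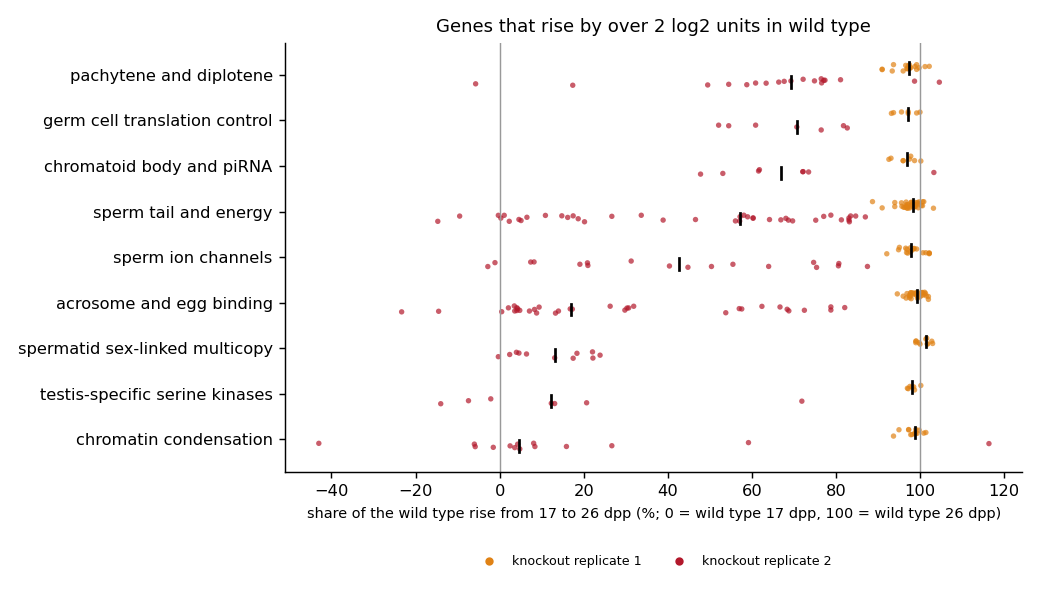
Share of the wild type increase from 17 to 26 dpp (x axis, %) reached by each knockout array, 1 point per gene with an increase over 2 log2 units, by gene list (y axis); black bars are list medians. Replicate 1 (orange) lies near 100% in every list shown, and the medians of replicate 2 (red) run from 70.7% for translation control to 4.6% for chromatin condensation; under the spike-in scalings replicate 2 shifts to the left as a whole. Points of genes not well above background at 17 dpp or in replicate 2 are not exact.

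Genes on the X chromosome had lower shares than autosomal ones in knockout replicate 2. The sex chromosomes are silenced in pachytene spermatocytes, and some of their genes are active again in spermatids. Among protein-coding genes of the wild type increase, 119 X-linked genes had a median share of 4.4% and 109 of them (91.6%) had under 25%. The 2285 autosomal genes had a median of 43.9%, and 865 were under 25%. Single autosomes had medians between 20.2% (chromosome 14) and 53.9% (chromosome 18). In knockout replicate 1 the X-linked median was 101.1%. The 119 genes had a median level of 0.769 and 1.501 in the wild type arrays of 26 dpp, of 1.08 in knockout replicate 1 and of −5.56 in replicate 2. The arrays of 17 dpp had −5.81 and −5.89 (wild type) and −5.66 and −5.80 (knockout), so that replicate 2 lay with the arrays of 17 dpp. These medians are at background: 62 of the 119 were not well above it on either wild type array of 17 dpp and 64 not in replicate 2, so their shares are not exact. Over the 51 X-linked genes measured on both wild type arrays of 17 dpp the median share was −1.7%, with 47 under 25%, and over 1535 such autosomal genes it was 51.5%, with 443 under 25%. The autosomal genes had medians of −3.45 and −3.32 in the younger wild type arrays and of −1.49 in replicate 2, between the ages. Under the scalings without spike-in probes the X-linked median stayed between 1.6% and 4.5% and the autosomal one between 39.4% and 44.9%. Scaled to the mean of 6 spike-in probes they were 1.6% and 19.3%, and scaled to the spike-in median −14.1% and −11.9%; these scalings also placed more genes in the increase, 145 X-linked and 4753 and 4745 autosomal. The list of multicopy genes of the X and Y chromosomes behaved alike, with all 11 members of the increase under 25% in replicate 2 (median 13.1%). The 11 include Akap4, which is also counted in the tail list. Near-identical copies share probes in this list, so values of single members are uncertain. Slx, an X-linked gene of spermatids, read 5.09 and 5.29 in wild type and 5.32 and 0.58 in the knockout, and Ssty1, on the Y, 4.70 and 4.26 against 4.63 and −2.81. Y-linked genes that are not confined to spermatids differed from these: Ddx3y, an RNA helicase, read −1.17 and −1.58 against −1.26 and 0.86.

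**Figure D4:**
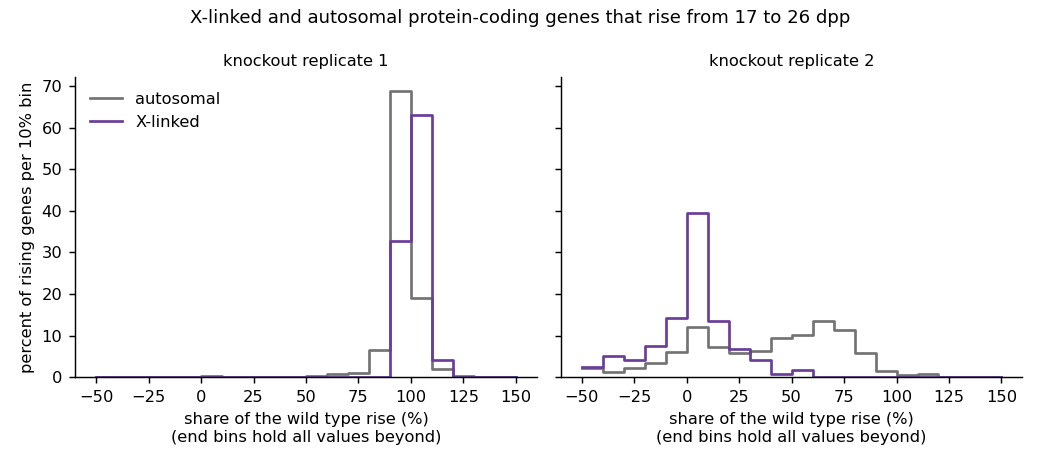
Percent of protein-coding genes (y axis) by share of the wild type increase (x axis, bins of 10%) for 119 X-linked and 2285 autosomal genes, with 1 panel per knockout array; end bins hold all values beyond. In replicate 1 both groups lie near 100%, and in replicate 2 X-linked genes gather near 0% while autosomal genes spread over the range; the medians of 4.4% and 43.9% became −14.1% and −11.9% when scaled to the spike-in median.

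In knockout replicate 1 the X chromosome was shifted by a small amount in the other direction. Over all 697 measured X-linked protein-coding genes the median difference from wild type was 0.066 in replicate 1, against −0.021 over 15989 autosomal ones. It lay 0.060 to 0.092 above all genes under the 8 scalings. Replicate 1 was above both wild type arrays in 238 of the 697 (34.1%, against 22.8% of all genes) and below both in 83 (11.9%, against 32.5%). Both knockout arrays were above both wild type arrays in 175 (25.1%, against 15.3%) and below in 35 (5.02%, against 17.0%). Limma called 0 of the 697 with all arrays and 0 without knockout replicate 2.

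Somatic markers divided by cell type in knockout replicate 2. Sertoli genes had a median of 0.784 over 33 and cell junction genes, which include those of the blood-testis barrier, 0.711 over 38; both fell below 0 under the spike-in scalings and lay 0.485 to 0.604 and 0.389 to 0.531 above all genes under the 8 scalings. Wt1, a Sertoli transcription factor, read 4.18 and 4.03 in wild type and 4.20 and 5.78 in the knockout, against 5.91 and 5.85 in wild type at 17 dpp. Fshr, the receptor for follicle-stimulating hormone, read −2.22 and −1.79 against −2.19 and 0.16, with 0.18 and 0.15 at 17 dpp. Cldn11, of Sertoli tight junctions, read 3.14 and 3.17 against 3.26 and 4.82. Replicate 2 thus read near wild type of 17 dpp on all 3 under this scaling. Sox9 did so less, at 0.29 and 0.06 against 0.36 and 0.80, with 2.05 and 1.92 at 17 dpp. Of 9 Sertoli genes with a wild type decrease over 2 log2 units, replicate 2 had under 25% of it in 3 and over 75% in 2. The median was 33.3%, with 65.9% for Amh, 76.2% for Gdnf and 96.5% for Kitl. Replicate 2 was the lowest of all 8 arrays for Rhox5 and Inha, 2 of the 33 (6.06%, against 14.0% of all genes).

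Leydig and macrophage genes were lower in knockout replicate 2 than at either age. Replicate 2 was the lowest of all 8 arrays in 14 of 25 Leydig genes (56.0%) and 17 of 24 macrophage genes (70.8%), against 14.0% of all genes. The medians against wild type were −1.06 and −1.17, and they were negative under all 8 scalings. Cyp11a1, which makes the first steroid of androgen synthesis, read 1.13 and 0.25 in wild type and 0.49 and −7.06 in the knockout. Replicate 2 was not well above background, at least 69.3-fold lower than wild type, and below the −1.21 and −3.61 of wild type at 17 dpp. Cyp17a1, the next enzyme, read 2.47 and 1.72 against 1.72 and −2.70. Hsd3b6, the adult Leydig form of its dehydrogenase, read −0.78 and −0.93 against −0.90 and −6.56, at least 23.8-fold lower. Hsd3b1 read 3.72 and 2.49 against 3.31 and −0.85, with 4.33 and 4.07 in wild type at 17 dpp. Nr5a1, a factor of both Sertoli and Leydig cells, was not low, at 2.28 and 2.19 against 2.27 and 2.55. Star, which brings cholesterol into mitochondria, read −1.66 and −2.35 against −2.82 and −2.99, below wild type in both knockout arrays. Hsd17b3, which makes testosterone, read −1.95 and −2.27 against −2.91 and −4.42, also below in both (difference −1.56, SE 0.520, limma adjusted p = 0.534).

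Among macrophage genes, Adgre1 (F4/80) read −0.98 and −1.11 in wild type and −1.01 and −2.99 in the knockout. Mrc1 (CD206) read 1.18 and 1.01 against 1.02 and −0.12. Cx3cr1, a chemokine receptor, read −0.99 and −1.58 against −0.55 and −5.07. C1qa, of complement, read −0.70 and −0.71 against −1.05 and −2.35. Replicate 2 was below all other arrays in each of these 4, the arrays of 17 dpp included. Csf1r, the receptor of their growth factor, differed less, at 1.81 and 1.24 against 1.35 and 1.07. Cd74 and Ciita, of class II antigen presentation, went the other way in replicate 2: Cd74 read 0.79 and 0.20 against 0.05 and 2.02. Aif1 was higher at 26 than at 17 dpp in wild type (4.30 and 5.43 against −0.37 and −0.05). It read −2.46 in replicate 2, the lowest of all 8 arrays. Endothelial genes had a median of 0.033 and peritubular myoid genes 0.148 in replicate 2, against 0.18 over all genes. Replicate 2 was the lowest of 8 arrays in 4 of 17 endothelial genes (23.5%) and 5 of 14 myoid genes (35.7%). For interferon response genes it was so in 12 of 24 (50%), against 14.0% of all genes. Whether the interstitial genes and the germ cell genes of replicate 2 moved for the same reason was not tested.

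**Figure D5:**
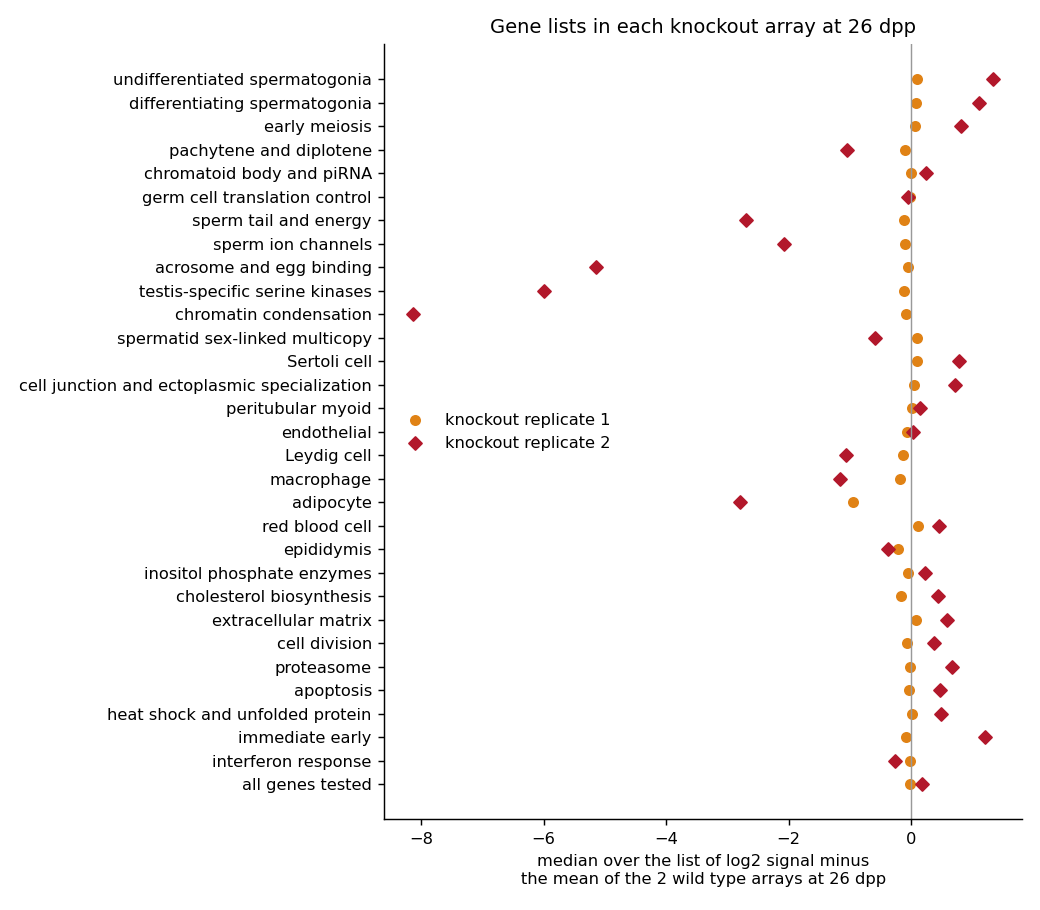
Median difference from the wild type mean at 26 dpp (x axis, log2 signal) over each of 30 gene lists and over all genes tested (y axis), 1 point per knockout array. Replicate 1 stays between −0.224 and 0.113 in every list except adipocyte markers (−0.951), and replicate 2 runs from −8.13 for chromatin condensation to 1.34 for undifferentiated spermatogonia; its medians above 0 fell below 0 under the spike-in scalings.

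Other pathways followed smaller patterns. Proteasome subunits had a median of 0.665 in knockout replicate 2, which was the highest of 8 arrays in 20 of 33 (60.6%, against 15.1% of all genes) but in 0 under either spike-in scaling. Psmb5, a catalytic subunit, read 6.10 and 5.99 in wild type and 5.94 and 6.43 in the knockout, and Psmc6, an ATPase of the cap, 1.59 and 1.58 against 1.58 and 3.26. Psma8, the spermatocyte form of an alpha subunit, read 0.34 and 0.71 against 0.57 and 0.62, within wild type. Immediate early genes had a median of 1.20 in replicate 2, below 0 under the spike-in scalings. Egr1, a factor induced by growth signals, read −0.71 and −0.89 against −0.67 and 2.51. Under this scaling replicate 2 was above the 1.43 and 1.81 of wild type at 17 dpp. In replicate 1 the pathway that stood out by count was cholesterol biosynthesis. It was below both wild type arrays in 16 of 24 genes (66.7%, against 32.5% of all genes) and above both in 0 (22.8%). The median was −0.166, and 0.106 to 0.140 below all genes under the 8 scalings. Lss, lanosterol synthase, read −2.52 and −2.59 in wild type and −2.94 in replicate 1, and Dhcr7, the last step of one branch, −1.77 and −1.83 against −2.25. Replicate 2 did not share this: it was below both wild type arrays in 6 of 24, with a median of 0.445 and Lss at −2.31. None of the 24 passed in limma with all arrays or without replicate 2.

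The largest single differences in knockout replicate 2 came from the same stages. Of the 10 genes furthest below wild type and measured on both sides, Prm2, Tnp1, Tnp2, H1f7, Akap4 and Hils1 have known roles in spermatid nuclei or tails. Scp2d1 read 5.43 and 6.46 in wild type and 5.87 and −4.22 in the knockout. Furthest above wild type were Bcan, a proteoglycan, at −2.87 and −2.80 against −2.43 and 2.75, and Galnt15, a glycosyltransferase, at −2.18 and −2.93 against −2.50 and 2.48. Wild type at 17 dpp read 2.67 and 2.49 for Bcan. Dlk1, a Notch-related membrane protein, read −0.73 and −1.36 against −0.06 and 3.06, with 3.47 and 3.96 at 17 dpp. Asb16 went beyond both ages, at −4.93 and −4.34 against −4.95 and 0.19, with −3.54 and −3.15 at 17 dpp. Over all genes, knockout replicate 1 lay below both wild type arrays in 32.5% and above both in 22.8%, and replicate 2 in 39.5% and 52.0%.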

How the data were processed

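RNA of mouse testes was hybridised to 8 one-colour Agilent arrays, 2 per genotype and age, on 1 slide. Per the labels, arrays were read with Agilent Feature Extraction, and the version in the file headers is 11.5.1.1. The processed signal, mean signal and local background deposited by the authors are intensity values per spot, not normalized between arrays. The authors' deposited value table holds log2 values that correlated at 0.999906 to 0.999946 with the scanner values used here and is an alternative; how its spots were combined is not given in the sources used here. Feature flags and control types (other columns) are those of the file headers.

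Per array, log2 processed signal minus log2 of the 75th percentile over non-control spots was used, with 103 to 200 outlier spots left out and spots of a probe averaged. Probes with the flag for signal well above background on each array of 1 or more groups were kept, 94 were left out for a missing value, and 37810 remained. The probe with the highest mean stood for its gene, giving 26451 genes; 7565 had several probes. Of 55681 probes, 27593 were named through their accession, 3497 carried a current symbol, 393 an older one and 24198 none. Coordinates of probes come from the files (mm9); no exon or UTR is assigned.

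Limma 3.58.1 in R 4.3.3 fitted 1 mean per group over all 8 arrays with empirical Bayes moderation (4 residual and 2.053 prior degrees of freedom, two-sided), adjusted by Benjamini-Hochberg over all genes; an adjusted p under 0.05 passed. The fit was tested on simulated data with 200 genes changed. The number of arrays limits the precision. Genes named are those that passed with all arrays or without knockout replicate 2 at 26 dpp, genes chosen by role in 30 lists, the 12 per direction with the largest gap between groups, the 10 per direction furthest from wild type in knockout replicate 2, and genes within 1 Mb of the Ip6k1 probe with a gap over 0.5; a few further list members (for example Lss, Dhcr7, Rec8, Nr5a1, Cx3cr1 and Aif1) were named after their values were seen. The last 3 sets are descriptions. Comparison, lists and rules were chosen with earlier results of these data known. Some genes are in several lists. Alternatives covered background correction, scaling, filter, choice of probe, model and leaving out each array.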

Additional observations from a re-analysis of the deposited data

How the results depend on the processing

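The count of 2 genes at 26 dpp changed under most alternatives. Limma called 0 genes with normexp under either scaling (326 with the 75th percentile and 359 with quantile normalization at an unadjusted p under 0.05), 0 with the spike-in median (811), 0 with only probes measured well above background on every array (344), 0 with a variance trend (496), 0 with array weights (210) and 0 with the 4 arrays of 26 dpp alone (221). It called 5 with quantile normalization, 8 with the 75th percentile over probes detected on all arrays and 7 with the mean of a gene's probes, and 2 with the authors' value table and with no filter on dim probes. The choices added after seeing the data were scaling to the mean of 6 spike-in probes, with 0 calls (207), crossing the replicate numbers, and limiting shares of the wild type increase to genes measured at 17 dpp.

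Leaving out 1 array gave 0 to 11958 genes at 26 dpp: 10 without knockout replicate 2, 11958 without knockout replicate 1, and 0 without any 1 of the other 6 (294 to 668 at an unadjusted p under 0.05). The difference between ages gave 0 genes in limma with all arrays, 1 with quantile normalization, and 0 to 8605 when 1 array was left out, namely 3 without wild type replicate 1 at 17 dpp, 2 without knockout replicate 2 and 8605 without knockout replicate 1 at 26 dpp. The 10 genes without knockout replicate 2 became 0 with normexp and quantile normalization (296), 0 with the arrays of 26 dpp alone (637) and 8 with quantile normalization.

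With the replicate number as a block limma called 0 genes (530), and with crossed numbers 0 (939). The deviations of same-numbered arrays correlated at −0.400 between wild type and knockout at 26 dpp and at −0.112 to 0.105 between other pairs of groups, so the numbers did not pair the samples. The cause of these changes was not tested. Over 221 named genes and the settings tried, no difference past the threshold in either setting changed sign. Of the other values, 221 changed sign with neither past the threshold, 4609 kept sign and side of the threshold, 160 passed only under the alternative and 30 were lost. Signal over background limits Adgrg7, Gal3st3 and the other dim genes, whose folds are bounds.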
